A study of Mus musculus with 23 samples.

Results

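The genes described here are 10 markers of the mature absorptive colonocyte, found by symbol among the 54354 genes of a bulk RNA sequencing table: Slc26a3, Aqp8, Fabp2, Ceacam1, Ceacam20, Vil1, Guca2a, Cdhr5, Tmigd1 and Cyp2c55. All 10 had exactly 1 row. The libraries came from mouse colon tumours grown from organoids that the labels call AKP, without spelling the name out. The organoids carried the red fluorescent marker tdT and a Basp1-eGFP-DTR reporter, in which eGFP (a green fluorescent protein) and DTR (the receptor for diphtheria toxin) mark Basp1, and the labels give 1 genotype, Basp1-GFP, for every library. Primary tumours were taken after injection into the colon, digested and sorted into GFP-negative (12 libraries) and GFP-positive (11 libraries) cells, so both groups share the organoid genotype, the site and the sort. The sources used here do not give the host's strain and age, the number of organoid lines, or whether tdT was used as a gate. The protocol text names organoids as the source of RNA while the design text names sorted tumour cells, and the names of some libraries join a pair of identifiers without saying whether animals were pooled.

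Absorptive colonocytes line the surface of the large bowel and the upper crypt. They arise from crypt stem cells that leave the base, stop dividing and take up salt, water and short-chain fatty acids through a brush border of microvilli. Slc26a3 exchanges chloride for bicarbonate, Aqp8 is a water channel, Guca2a encodes the peptide guanylin, which acts on the receptor guanylate cyclase C, and Vil1 and Cdhr5 build the brush border. Such genes are usually low in tumours in which Wnt signalling is locked on.

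Depth limits what can be seen. Total counts ran from 25458 to 2304316 in GFP-negative libraries (median 144334.5, n = 12) and from 37125 to 4238877 in GFP-positive libraries (median 1418140, n = 11), and 4 libraries held fewer than 100000. At the shallowest depth, 3 counts stand for 118 CPM (counts per 1000000 of the library total), and at the deepest for 0.708 CPM. GFP-positive 3 stood apart, with a summed level of 12 macrophage genes of 32200 CPM, against 131 to 1135 CPM in the other GFP-positive libraries. Markers of epithelium were present throughout: 10 genes such as Epcam, Krt8 and Krt19 summed to between 2952 and 10310 CPM. By library number there are 2 runs: library set 1, with 6 GFP-negative and 5 GFP-positive members, and library set 2, with 6 of each. Nothing in the labels says whether a run was prepared or sequenced together. Library names also carry an identifier, and 10 identifiers had both populations, 1 of them through a merge made here. The name of GFP-positive 4 joins a pair of identifiers, and GFP-negative 4 and GFP-negative 5 each carry 1 of that pair. All of these libraries were given the joined identifier. This choice enters the counts by identifier, the fits that use the identifier and the correlations between libraries of an identifier.

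The genes lie on several chromosomes of mm10 (GENCODE M21 annotation, used here for positions and exon lengths). On chromosome 7 are Ceacam20 (ENSMUSG00000070777) at chr7:19965412-19991104, Ceacam1 (ENSMUSG00000074272) at chr7:25461707-25477603, Aqp8 (ENSMUSG00000030762) at chr7:123462291-123468004 and Cdhr5 (ENSMUSG00000025497) at chr7:141269083-141276786. The transporter gene is Slc26a3 (ENSMUSG00000001225) at chr12:31390871-31473917, and the brush border gene Vil1 (ENSMUSG00000026175) is at chr1:74409376-74435559. The others are Fabp2 (ENSMUSG00000023057) at chr3:122895072-122899506, Guca2a (ENSMUSG00000023247) at chr4:119637704-119639471, Tmigd1 (ENSMUSG00000020839) at chr11:76902159-76916587 and Cyp2c55 (ENSMUSG00000025002) at chr19:39007019-39042693. Ceacam1 and Cdhr5 are on the minus strand and the others on the plus strand.

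The level of the 10 genes differed widely between genes. Scaled by the bases their exons cover, Guca2a was the most abundant, at 313 CPM per kb on average over the 23 libraries, followed by Ceacam1 (121), Vil1 (25.6), Aqp8 (12.4) and Cyp2c55 (11.9). Below them came Fabp2 (4.85), Cdhr5 (3.79), Slc26a3 (2.241), Ceacam20 (1.66) and Tmigd1 (0.508). The spread over libraries was larger than the gap between most neighbours in this order: Guca2a in GFP-positive libraries, for example, averaged 430 ± 584 CPM per kb (SD, n = 11). Ceacam1 had a count in 23 of 23 libraries, Guca2a and Vil1 in 22, and Tmigd1 in 6. Aqp8 was counted in 20 libraries, Cyp2c55 in 18, Slc26a3 and Cdhr5 in 16, Ceacam20 in 13 and Fabp2 in 12. Total counts per gene ran from 19962 for Ceacam1 to 13 for Tmigd1.

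**Figure D1:**
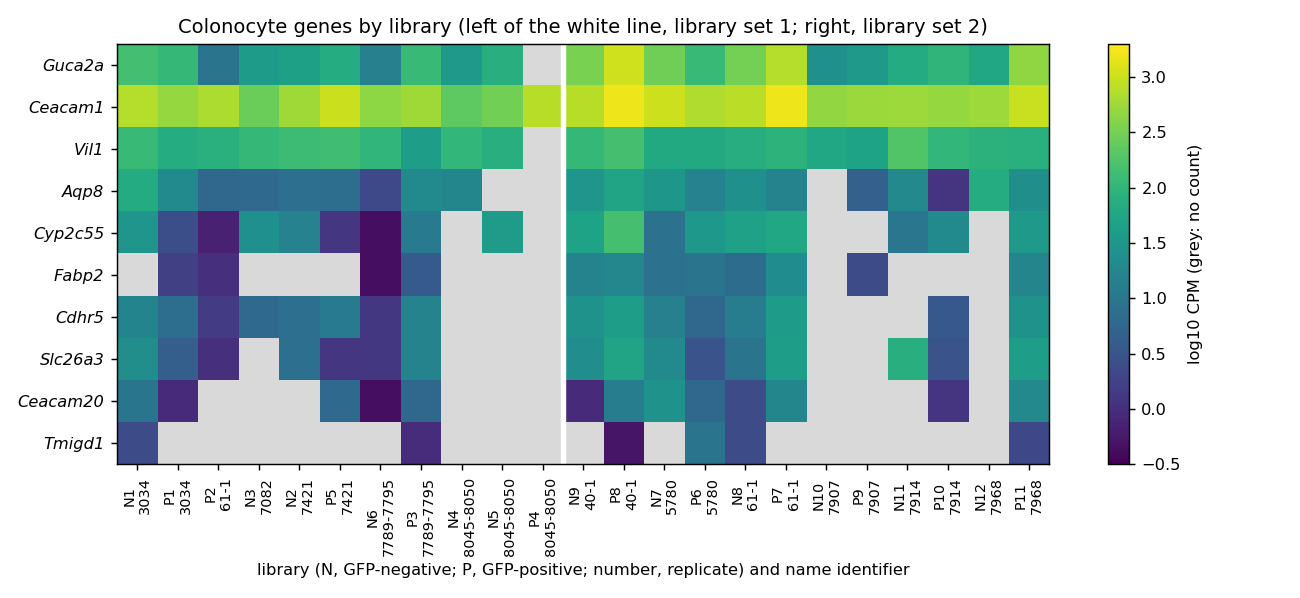
Each cell is the log10 CPM of 1 gene (rows, ordered by mean level per kb) in 1 library (columns, N for GFP-negative and P for GFP-positive, with the name identifier), and grey marks a library with no count. Ceacam1 has a count in every column and Vil1 in 22 of 23, while Guca2a spans 9.27 to 1051 CPM among libraries of at least 100000 counts.

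None of the 10 genes differed between GFP-positive and GFP-negative cells by the test over all genes. In the comparison of the sorted populations, 5 of the 10 (Aqp8, Ceacam1, Vil1, Guca2a and Cyp2c55) had enough counts to enter the fit, and 0 of the 5 were called (edgeR's quasi-likelihood F test, with p adjusted by Benjamini-Hochberg over all genes and a threshold of 0.05), where 0.0151% of the 6621 tested genes were called. Of these 5 genes, 1 had an unadjusted p under 0.05 by edgeR, beside 328 of the 6621 genes tested. DESeq2 called 0 of the 7 members for which it gave an adjusted p. When every gene with at least 1 count was fitted, 0 of 10 were called (0.00419% of 23846 genes called). An unadjusted p under 0.05 by edgeR was seen for 1 of the 10, beside 2657 of the 23846 genes. In that wider fit 8 of 10 log2 fold changes were positive with a median of 0.68, beside 60.8% positive and a median of 0.19 over all genes fitted. Within library set 1, 0 of the 3 members tested were called (0% of 5256 genes). There 1 had an unadjusted p under 0.05 by edgeR, beside 284 of the 5256 genes. Within library set 2, 0 of 6 were called, where 1.28% of 6952 genes were. Of these 6, 0 had an unadjusted p under 0.05 by edgeR, beside 478 of the 6952 genes. DESeq2 was not run within sets. A positive log2 fold change means a higher level in GFP-positive cells. In bulk RNA, fewer colonocyte-like cells and less of this RNA per cell cannot be told apart.

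Ceacam1, an adhesion molecule of the epithelial surface that endothelium and leukocytes also make, was the member nearest to a difference. Its level was 225 CPM in the lowest GFP-negative library, 548 in the median and 1013 in the highest (n = 12), against 498, 713 and 1576 CPM in GFP-positive libraries (n = 11). The ranges overlapped between 498 and 1013 CPM, and the highest values were those of GFP-positive 7 and GFP-positive 8. Its log2 fold change was 0.56 (SE 0.25, 95% interval 0.05 to 1.08, edgeR unadjusted p = 0.0328, adjusted p = 0.992). It was 0.60 without GFP-positive 3 (SE 0.26, edgeR adjusted p = 0.675) and 0.46 without the 4 libraries under 100000 counts (SE 0.28, edgeR adjusted p = 0.991). Means were 432 ± 200 and 699 ± 188 CPM in library set 1 (SD, n = 6 and 5). Library set 2 had 698 ± 203 and 973 ± 493 CPM (SD, n = 6 and 6). By identifier, with CPM averaged over libraries that share an identifier and a population, 7 of 10 had more Ceacam1 in GFP-positive cells. Among these was 61-1, where GFP-positive 2 had 673 CPM and GFP-positive 7 had 1576, against 804 in GFP-negative 8. Summed levels of 6 endothelial genes ran from 0 to 413 CPM in GFP-negative and from 26.9 to 224 CPM in GFP-positive libraries, and those of 12 macrophage genes from 419 to 6953 and from 131 to 32200 CPM; their part in the Ceacam1 level was not tested.

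Guca2a had the largest fold change of the 5 tested genes, with an SE nearly as wide. Its level was 14.3 CPM in the lowest GFP-negative library, 63.1 in the median and 341 in the highest (n = 12), against 0, 108 and 1051 CPM in GFP-positive libraries (n = 11). The value of 0 came from GFP-positive 4, where 3 counts would be 80.8 CPM. The GFP-positive range enclosed the whole GFP-negative range. Its log2 fold change was 0.97 (SE 0.72, 95% interval -0.54 to 2.47, edgeR adjusted p = 0.997), and it fell to 0.44 without GFP-positive 8. By identifier, 7 of 10 had more Guca2a in GFP-positive cells. For 61-1, one of the 7, this rests on the average of GFP-positive 2 (9.27 CPM) and GFP-positive 7 (742), against 315.5 CPM in GFP-negative 8.

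Vil1, the actin bundling protein villin of microvilli, was the steadiest member. Its level was 60.2 CPM in the lowest GFP-negative library, 102 in the median and 186 in the highest (n = 12), against 0, 80.9 and 152 CPM in GFP-positive libraries (n = 11), the 0 again from GFP-positive 4. All libraries but that one lay between 42.5 and 186 CPM. Its log2 fold change was -0.24 (SE 0.27, 95% interval -0.79 to 0.30, edgeR adjusted p = 0.997), and 3 of 10 identifiers had the higher level in GFP-positive cells.

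Aqp8 was the other member with a negative fold change, at -0.54 (SE 0.53, 95% interval -1.63 to 0.55, edgeR adjusted p = 0.997). It had 0, 18.5 and 71.9 CPM in the lowest, median and highest GFP-negative library and 0, 15.4 and 52.8 CPM in GFP-positive libraries. The highest value, in GFP-negative 12, rests on 5 counts (95% exact binomial interval 23.3 to 168 CPM). GFP-negative 1 followed with 68.3 CPM from 29 counts. The Aqp8 fold change became -0.20 on the log2 scale without GFP-negative 1 and -0.99 without GFP-positive 8. By identifier, 7 of 10 had less Aqp8 in GFP-positive cells and 3 had more, and several of these directions rest on few counts. Among the 7, GFP-negative and GFP-positive counts were 1 and 6 for 7421, at 7.62 and 7.51 CPM. They were 2 and 2 for 7914, 5 and 35 for 7968, and 1 and 0 for the identifier of GFP-positive 4. Among the 3 with more, 7907 had 0 and 4 counts.

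Cyp2c55, a cytochrome P450 of the mouse gut and liver that oxidises fatty acids such as arachidonic acid, had a fold change whose sign differed between sets of libraries. It had 0, 12.5 and 49.8 CPM in the lowest, median and highest GFP-negative library and 0, 11.8 and 153 CPM in GFP-positive libraries. GFP-positive 8 held the top value, with 596 of the 767 GFP-positive counts. Its log2 fold change was 0.56 (SE 0.85, 95% interval -1.20 to 2.32, edgeR adjusted p = 0.997) and became -0.33 without GFP-positive 8 (edgeR adjusted p = 1.00). In library set 1 the means were 18.5 ± 16.2 CPM in GFP-negative and 3.27 ± 4.86 in GFP-positive libraries (SD, n = 6 and 5). They rest on 21 and 39 counts, and the highest GFP-negative value there (39.3 CPM, GFP-negative 5) is 1 count. With counts pooled over libraries the levels were 6.77 and 3.90 CPM. In the fit of library set 1 alone without the filter, the log2 fold change of Cyp2c55 was -1.74 (SE 0.92). The corresponding means of library set 2 were 19.3 ± 23.2 and 50.1 ± 53.9 CPM (SD, n = 6 and 6). The difference between the sets in the GFP effect did not pass the test (log2 difference 2.72, edgeR interaction test, adjusted p = 0.790), and this test called 0% of the 6621 genes.

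**Figure D2:**
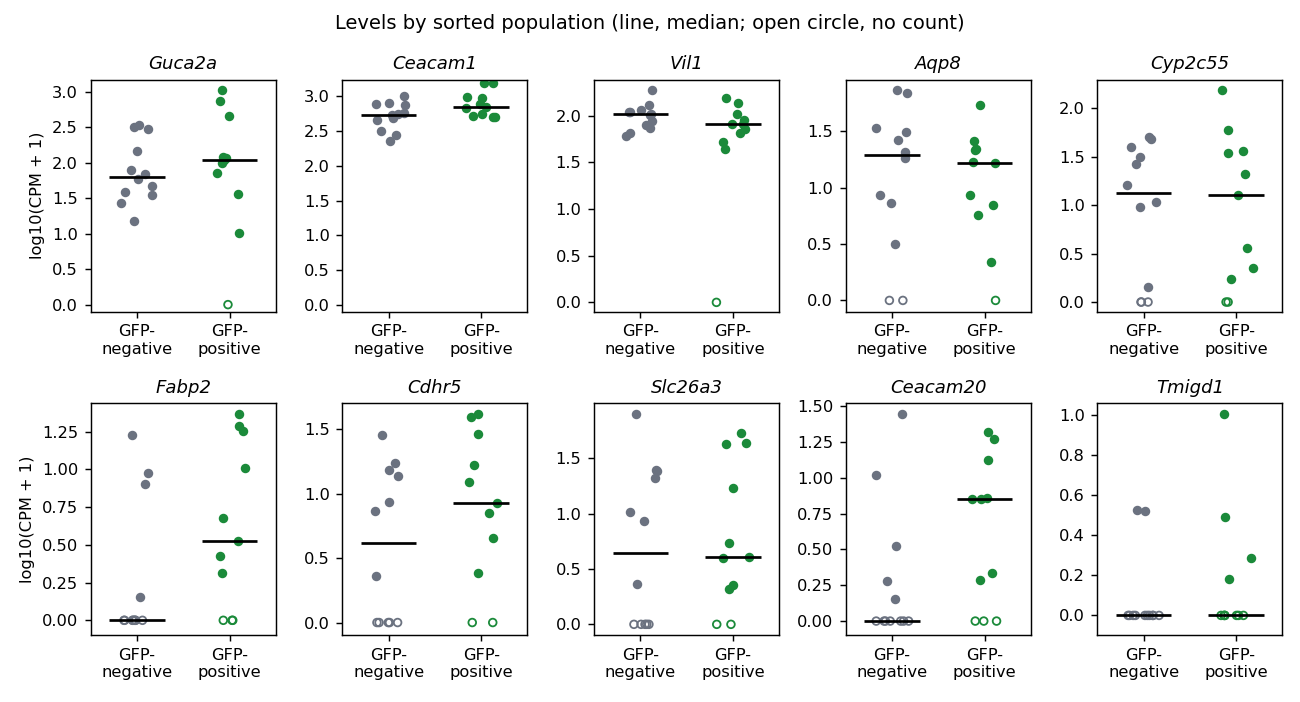
Each point is 1 library, as log10(CPM + 1) by sorted population, with the median as a line with open circles for libraries with no count. In each of the 10 panels the GFP-positive and GFP-negative points overlap, as for Ceacam1 (225 to 1013 CPM against 498 to 1576 CPM).

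The other 5 members lay below the expression filter, so their fold changes come from the fit of every gene with at least 1 count. Slc26a3 had 0, 4.46 and 78.4 CPM in the lowest, median and highest GFP-negative library and 0, 3.08 and 52.5 CPM in GFP-positive libraries. The highest value, in GFP-negative 11, rests on 8 counts (95% exact binomial interval 33.9 to 155 CPM), and the next, in GFP-positive 8, on 205. Its log2 fold change of 0.37 (SE 0.81, edgeR adjusted p = 0.899) became -0.11 without GFP-positive 8. Cdhr5, a protocadherin that links the tips of microvilli, had 0, 3.83 and 27.6 CPM in GFP-negative and 0, 7.55 and 40.7 CPM in GFP-positive libraries (0.68, SE 0.61, edgeR adjusted p = 0.695). The Cdhr5 value was 0.33 without GFP-positive 8 and 1.13 without GFP-negative 9. Cdhr5 was counted in all but 3 of the 19 libraries with at least 100000 counts.

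Fabp2, the intestinal fatty acid binding protein, is most abundant in the small intestine. Its counts came to 31 in GFP-negative libraries together and 133 in GFP-positive ones, with medians of 0 and 2.33 CPM and maxima of 16.0 and 22.3 CPM. By identifier, Fabp2 was higher in GFP-positive cells in 7, lower in 0 and without a count in either population in 3 (log2 fold change 0.78, SE 0.74, edgeR adjusted p = 0.713). In 3 of those 7 the GFP-negative library had no count, and each of these was shallower than its GFP-positive counterpart, a difference whose part in the result was not tested. Identifier 61-1 was among the 7 by the average of its GFP-positive libraries. GFP-positive 2 had 1.07 CPM and GFP-positive 7 had 22.3, against 6.96 in GFP-negative 8. The Fabp2 value was 0.45 without GFP-positive 7 and 1.51 without GFP-negative 9. Ceacam20, an adhesion molecule of microvilli, had medians of 0 and 6.14 CPM and maxima of 26.9 and 19.7 CPM (0.52, SE 0.76, edgeR adjusted p = 0.799). Without GFP-negative 7, the library with that maximum, the value was 1.95, and without GFP-positive 11 it was 0.20. Tmigd1, an adhesion molecule of epithelium, had 3 and 10 counts in all (0.68, SE 1.12, edgeR adjusted p = 0.971), too few to tell a difference at this depth.

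The members also differed widely between libraries of the same sorted population. Over the 19 libraries with at least 100000 counts, GFP-positive 8 ranked in the top 3 for 8 of 10 genes, GFP-positive 7 for 6 and GFP-positive 11 for 5. Guca2a differed 113-fold between the highest of these libraries (GFP-positive 8, 1051 CPM) and the lowest (GFP-positive 2, 9.27 CPM), whereas Vil1 differed 4.38-fold and Ceacam1 5.64-fold. Both ends of the Guca2a range were GFP-positive. At the low end, GFP-negative 6 had 14.3 CPM of Guca2a from 2304316 counts and GFP-positive 9 had 35.0 CPM from 857615.

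Libraries whose names share an identifier did not always share the pattern. The name 61-1 stands on GFP-positive 2 (library set 1), GFP-positive 7 (library set 2, with a suffix -2 whose meaning is not given) and GFP-negative 8 (library set 2). Guca2a was at 9.27 CPM in GFP-positive 2 (95% exact binomial interval 6.06 to 13.6), 742 CPM in GFP-positive 7 (676 to 813) and 315 CPM in GFP-negative 8 (279 to 355). GFP-positive 7 exceeded GFP-positive 2 80.0-fold for Guca2a, 82.8-fold for Cyp2c55, 38.8-fold for Slc26a3, 26.9-fold for Cdhr5 and 20.9-fold for Fabp2. For Aqp8, Ceacam1 and Vil1 the ratios were 2.63, 2.34 and 1.10. These ratios compare single libraries and have no replicate check, and GFP-positive 2 gave only 3 counts each for Slc26a3 and Fabp2 and 2 for Cyp2c55. In identifier 40-1 both populations were high, with 1051 CPM of Guca2a in GFP-positive 8 and 341 in GFP-negative 9, and in identifier 7907 both were low, with 35.0 in GFP-positive 9 and 25.8 in GFP-negative 10.

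When the identifier was not in the fit, for most of these genes the spread between libraries of a group was wider than for most genes of like abundance. The biological coefficient of variation (BCV, edgeR's estimate of replicate spread beyond counting error) of Guca2a was 1.16, against a median of 0.376 for the 500 genes nearest in abundance, of which 14 were higher. Cyp2c55 had 1.41 against 0.471 (3 of 500 higher) and Aqp8 0.819 against 0.484 (9 of 500 higher). In the fit without the filter, Slc26a3 had 1.35 against 0.636, with 19 of 500 higher. Ceacam20, Fabp2 and Cdhr5 had 38, 42 and 45 of 500 genes above them. Vil1 was ordinary, at 0.405 against 0.407, and Ceacam1 had 0.436 against 0.346 (77 of 500 higher). With the identifier as a block, Guca2a had 0.951 against 0.358 (11 of 500 higher) and Aqp8 0.610 against 0.497 (25 of 500 higher). In the blocked fit without the filter, the estimates of Slc26a3 and Cyp2c55 were 0.633 and 0.617, near edgeR's trend over all genes at their abundance (0.630 and 0.550). Those of Fabp2 (0.829), Ceacam20 (0.836), Cdhr5 (0.665) and Aqp8 (0.587) lay on it. An estimate that lies on the trend is not a separate measure of that gene's spread. That fit therefore cannot tell whether Fabp2, Ceacam20, Cdhr5 and Aqp8 spread more than genes of like abundance. The same limit holds for Slc26a3, whose estimate was nearly on the trend.

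**Figure D3:**
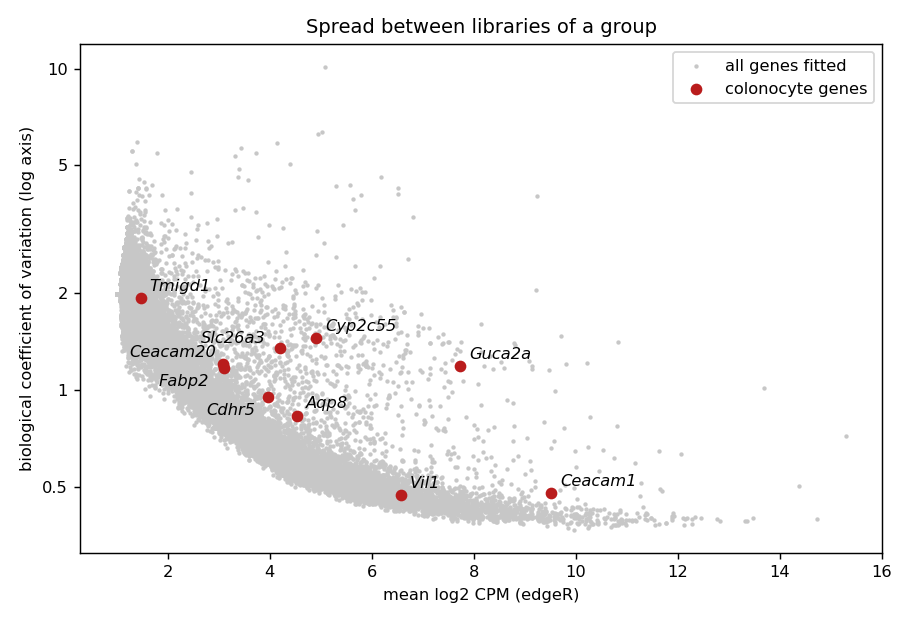
The biological coefficient of variation (vertical, log axis) is plotted against the mean log2 CPM (horizontal) for all 23846 genes fitted without the filter, with the 10 colonocyte genes in red. Guca2a and Cyp2c55 lie far above the band of genes of their abundance, and Vil1 lies within it.

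Library set 2 was compared with library set 1, and no member passed the test. In a fit with both sorted population and library set, an analysis added after the values were seen, all 10 genes had a higher fitted level in library set 2, with a median log2 difference of 1.51 in the fit without the filter. Over all genes in that fit 46.7% were higher in library set 2, the median was -0.06 and 13.2% had an unadjusted p under 0.05. Fabp2 had the largest, 3.11 (SE 0.76, edgeR adjusted p = 0.0572), followed by Cyp2c55 at 2.33 (SE 0.94, adjusted p = 0.285) and Guca2a at 2.29 (SE 0.68, adjusted p = 0.149). Of the members, 0 of 10 were called (0.138% of 23846 genes called) and 7 had an unadjusted p under 0.05 by edgeR. Among members that passed the filter, 0 of 5 were called (0.0906% of 6621 genes called). By edgeR, 3 of these 5 had an unadjusted p under 0.05, beside 6.65% of the 6621 genes. Without the 4 libraries under 100000 counts, 0 of 10 were called (0.0505% of 23771 genes called), and Fabp2 had 3.08 (edgeR adjusted p = 0.147). Vil1 had 0.10 (SE 0.29). Within library set 2 the genes were still uneven. Guca2a was at 117 CPM or more in the 6 libraries of identifiers 5780, 61-1 and 40-1 and in GFP-positive 11, and at 97.7 CPM or less in the other 5. The sets hold different identifiers except for 61-1, whose GFP-positive libraries had 9.27 CPM of Guca2a in library set 1 and 742 in library set 2. For the other identifiers, set and identifier cannot be told apart, and the labels do not say what an identifier stands for.

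**Figure D4:**
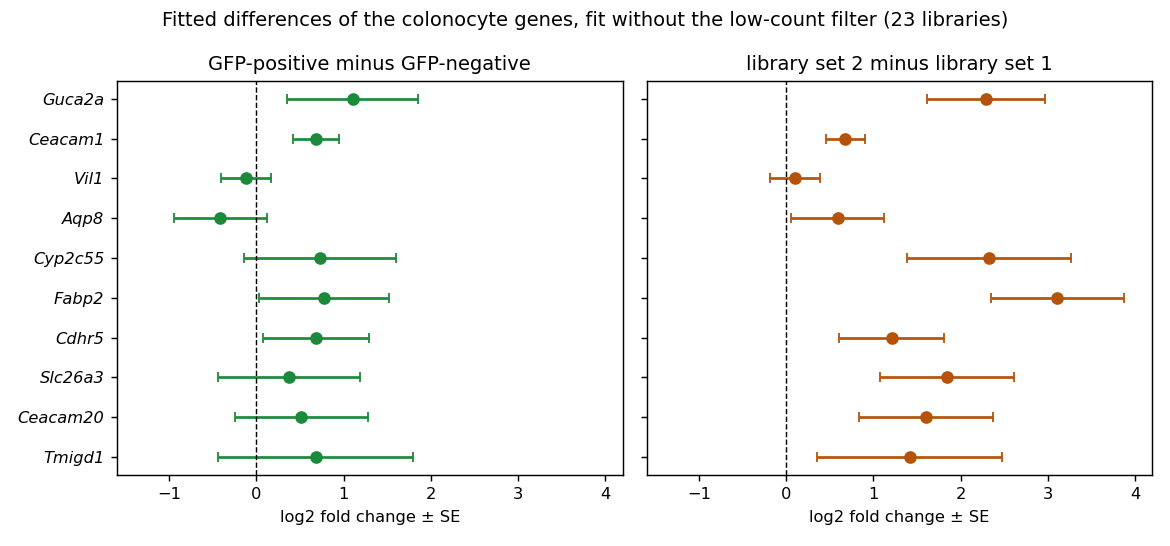
Points are fitted log2 fold changes and bars 1 SE, for GFP-positive minus GFP-negative (left) and library set 2 minus library set 1 (right), from fits of 23 libraries without the low-count filter. On the left 8 of 10 values are positive and the largest is 1.10, on the right all 10 are positive and the largest is 3.11.

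The promoters of the 3 genes with the largest library set differences (Fabp2, Cyp2c55 and Guca2a) are shown with that of Vil1, the steadiest member, to set them side by side. Each is the 250 bases before the RefSeq transcription start on GRCm38.p6, 5′ to 3′ on the gene's strand, and all 4 are on the plus strand. They lie at chr3:122894822-122895071, chr19:39006769-39007018, chr4:119637482-119637731 and chr1:74409134-74409383. Capitals mark matches, on either strand, to TTTATNG (a CDX site), CAAAGTNCA (an HNF4 site) and, for GATA factors, the letters AGATAA.
Fabp2: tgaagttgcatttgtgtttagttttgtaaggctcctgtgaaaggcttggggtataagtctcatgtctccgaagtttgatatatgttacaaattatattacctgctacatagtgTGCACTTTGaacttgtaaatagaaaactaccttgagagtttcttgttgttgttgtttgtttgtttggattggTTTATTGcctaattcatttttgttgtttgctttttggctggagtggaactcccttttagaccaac
Cyp2c55: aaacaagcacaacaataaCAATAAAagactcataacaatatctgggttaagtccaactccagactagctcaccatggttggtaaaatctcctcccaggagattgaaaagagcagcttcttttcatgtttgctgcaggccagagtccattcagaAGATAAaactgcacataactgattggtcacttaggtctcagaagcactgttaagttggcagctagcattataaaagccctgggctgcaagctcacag
Guca2a: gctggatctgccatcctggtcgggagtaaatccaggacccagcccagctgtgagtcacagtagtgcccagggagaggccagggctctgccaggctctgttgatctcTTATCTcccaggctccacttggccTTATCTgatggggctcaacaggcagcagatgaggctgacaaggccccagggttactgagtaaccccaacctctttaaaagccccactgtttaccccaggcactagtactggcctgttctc
Vil1: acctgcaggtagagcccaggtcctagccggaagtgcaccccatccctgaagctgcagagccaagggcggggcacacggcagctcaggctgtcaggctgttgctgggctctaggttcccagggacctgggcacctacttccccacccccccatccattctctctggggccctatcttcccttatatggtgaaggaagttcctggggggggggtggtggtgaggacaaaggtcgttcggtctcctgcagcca
The core promoter element spelled TATAAA and the KLF site spelled GGGTGTGG were searched too, also on both strands, and no matches overlapped. Fabp2 had the CDX match, 65 bases before the start, and the HNF4 match, 137 bases before it. Cyp2c55 had a CDX match, a GATA match and, 29 bases before the start, TATAAA, and Guca2a had 2 GATA matches. Vil1 had no match to any of the 5. Over the 11 windows of the 10 members (Tmigd1 has 2 start sites), CDX letters were found in 3, HNF4 in 1, GATA in 3, TATAAA in 3 and KLF in 0. Among all 32851 windows of this length the shares were 9.81%, 1.19%, 9.99%, 12.4% and 3.20%. A match is a description of the sequence, not evidence of binding.

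Related genes from lists of the same cell types and pathways gave no call either, apart from 1 fibroblast gene. Of 25 other genes of absorptive colonocytes, 13 were tested and 0 called, 10 with a positive fold change (median 0.36, beside 0.07 over all genes tested). Within library set 1 the same list had 3 positive and 7 negative values (median -0.15), and with the identifier as a block 8 and 5 (median 0.13). Lypd8, an antibacterial surface protein of colonocytes, averaged 593 ± 478 CPM without GFP and 844 ± 896 CPM with it (SD, n = 12 and 11; log2 fold change 0.52, SE 0.60). The carbonic anhydrase genes Car2 and Car1 had -0.44 (SE 0.33) and 0.16 (SE 0.58). Of 16 brush border genes 10 were tested and 0 called, with a median of -0.06. Their most abundant members were Ezr, which ties microvilli to the membrane (0.47, SE 0.21), the actin regulator Eps8 (0.80, SE 0.24, edgeR unadjusted p = 0.00202, adjusted p = 0.730) and Calml4, a light chain of brush border myosin (-0.08, SE 0.44). None of the 15 small intestinal enterocyte genes was expressed enough to be tested, and Ada, Rbp2 and Fabp1 had 501, 266 and 34 counts over the 23 libraries.

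Pathway partners of single members were likewise not called. Downstream of guanylin, 3 of 7 genes were tested, with 0.61 for the cGMP-dependent kinase Prkg2 (SE 0.25, edgeR adjusted p = 0.949), 0.20 for Abcc4 (SE 0.37) and -0.05 for Pde5a (SE 0.42). Its receptor gene Gucy2c, named after its values were seen, was below the filter at 8.75 ± 13.8 and 9.0 ± 9.96 CPM (SD, n = 12 and 11). Around Slc26a3, 5 of 11 chloride and bicarbonate genes were tested, with 0.34 for the cotransporter Slc12a2 (SE 0.34), 0.79 for the sulphate transporter Slc26a2 (SE 0.35, edgeR adjusted p = 0.992) and -0.14 for the scaffold Slc9a3r1 (SE 0.34). Around the Ceacam genes 3 of 9 were tested, with 1.39 for Ceacam10 (SE 0.74, edgeR adjusted p = 0.996), 0.30 for Ptpn11 (SE 0.30) and 0.23 for Ptpn6 (SE 0.33), which encode phosphatases of Ceacam1 signalling. Reads of the near-identical Ceacam and Cyp2c genes may be divided uncertainly by the counting.

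Other cytochrome genes, family members and transcription factors of gut epithelium were not called over all 23 libraries. Of 9 genes around Cyp2c55 2 were tested, the reductase Por (0.07, SE 0.24) and Cyp2j6 (-0.09, SE 0.41), and Cyp2c68 lay below the filter with 557 counts. Among aquaporin and fatty acid binding genes 3 of 10 were tested, including Fabp5 (-1.46, SE 0.46, edgeR unadjusted p = 0.00339, adjusted p = 0.730) and Fabp4 (-0.74, SE 0.78), while Aqp4 lay below the filter. Within library set 2, Fabp5, which like Fabp2 binds fatty acids, was called lower in GFP-positive cells (-2.08, SE 0.49, edgeR adjusted p = 0.0223). Of 19 transcription factors of gut epithelium 6 were tested and 0 called, with a median of 0.28. Hes1, the Notch target that favours the absorptive fate, had 0.35 (SE 0.27), and Klf5 and Klf4 had 0.21 (SE 0.27) and -0.12 (SE 0.33). Hnf4a, which drives enterocyte genes and was named after its values were seen, had 0.46 (SE 0.47).

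Goblet cell genes, markers of the secretory lineage, were also high in the libraries with the highest colonocyte sums, but the order differed further down. Summed over the 10 members, the level was highest in GFP-positive 8 (3110 CPM), GFP-positive 7 (2602), GFP-positive 11 (1651) and GFP-negative 7 (1486). Those 4 libraries ranked 1 to 4 for the 25 other absorptive cell genes too (7864, 6794, 4401 and 4128 CPM), and 1, 2, 5 and 3 for 10 goblet genes (8075, 7049, 4655 and 5885 CPM). Of the top 6 libraries by the members' sum, 4 were in the top 6 for goblet genes. GFP-negative 1 ranked 4 for goblet genes and 8 for the members, while GFP-negative 9 and GFP-negative 8 ranked 5 and 6 for the members and 7 and 9 for goblet genes. The members' sum is weighted towards Ceacam1, with 19962 counts against 7240 for Guca2a. Without Ceacam1, Vil1 and Guca2a it was 330 CPM in GFP-positive 8, 195 in GFP-positive 7 and 169 in GFP-positive 11. GFP-negative 1 then had 151 CPM, GFP-negative 9 had 148 and GFP-negative 8 had 107. The order therefore depends on which members are summed. GFP-positive 8 and GFP-positive 7 ranked 1 and 2 for the 10 epithelial genes too (10310 and 9503 CPM). In GFP-positive 2 the sums of the members, other absorptive cell genes and goblet genes were 773, 979 and 429 CPM. Ceacam1 gave 673 CPM of the members' sum there. The goblet list had 8 of 10 genes tested and 0 called between the sorted populations (median 0.58), among them Spink4 (0.30, SE 0.73), Zg16 (0.67, SE 0.73) and Agr2 (0.28, SE 0.46). Whether the tumour cells themselves or normal colon epithelium in the sort gave this RNA was not tested.

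**Figure D5:**
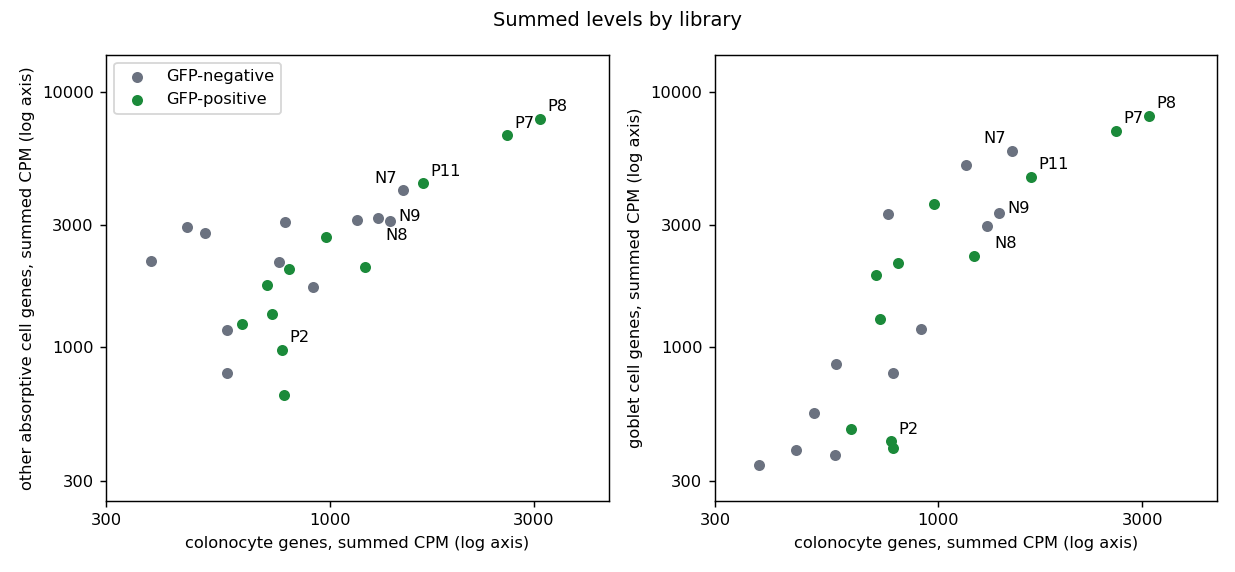
Each point is 1 library, with the summed CPM of the 10 colonocyte genes (horizontal, log axis) against that of 25 other absorptive cell genes (left) and 10 goblet genes (right), coloured by sorted population. GFP-positive 8 and GFP-positive 7 (P8 and P7) are at the top of both panels, and GFP-positive 2 (P2) is near the bottom.

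Among markers of other cell types 1 gene was called. Of 10 fibroblast genes 7 were tested, all with a negative fold change (median -2.35), and 1 was called: Fbln1, an extracellular matrix protein (-3.17, SE 0.54, edgeR adjusted p = 0.0119). The fibroblast median was -0.28 within library set 1 (5 tested, 0 called, 0 with an unadjusted p under 0.05 by edgeR) and -2.86 within library set 2 (9 tested, 4 called lower). Fibroblast sums ran from 172 to 12470 CPM in GFP-negative and from 0 to 3099 CPM in GFP-positive libraries. Since CPM is a share of all RNA, RNA from such cells lowers every epithelial level in that library, and this part in the colonocyte values was not tested. Epithelial genes were not called (0 of 10 tested, 9 positive, median 0.29; Krt19 -0.07, SE 0.17, Lgals4 0.27, SE 0.50, Krt8 0.09, SE 0.16), nor were crypt base stem cell genes (0 of 4 tested, median 0.12; Sox9 0.50, SE 0.31, Smoc2 -0.09, SE 0.32, Prom1 0.32, SE 0.28). Of the macrophage genes 9 of 12 were tested and 0 called (median 0.03, with Lyz2 -0.06, Apoe 0.49 and C1qb 0.42). Within library set 1, which holds GFP-positive 3, all 9 tested were positive (median 1.59) and 0 were called. Within library set 2, which does not hold GFP-positive 3, all 9 were called lower (median -3.71), where 1.28% of 6952 genes were called. With the identifier as a block, all 9 were negative (median -3.03) and 0 were called. All 9 had an unadjusted p under 0.05 by edgeR in that fit, beside 298 of the 6673 genes tested. The macrophage sum was lower in GFP-positive cells in all identifiers but that of GFP-positive 3. Also tested and not called were 3 of 6 neutrophil genes (median -0.40, with Ly6g -0.50) and 2 of 6 endothelial genes (Flt1 -0.28, Pecam1 -0.73). Of lymphocyte genes 1 of 9 was tested and not called (Trbc1 0.69). Trbc1 had 7914 counts, while Cd3e, Cd3d, Nkg7, Cd79a and Ms4a1 had 0, Trbc2 had 29 and Jchain and Ighm 67 each. Its level is therefore not read here as a measure of lymphocytes. Ly6g had 3790 counts, and the other neutrophil genes had from 83 (Csf3r) to 832 (S100a8). Basp1, the reporter gene, averaged 33.4 ± 27.0 CPM without GFP and 57.8 ± 32.9 CPM with it (SD, n = 12 and 11; log2 fold change 0.63, SE 0.38, edgeR adjusted p = 0.997).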

How the data were processed

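The table holds expected counts of reads for each gene, in whole numbers as the authors deposited them. They were made with Salmon 1.3.0 on the mm10 mouse genome, per the submitters' processing notes. The sources used here do not give the transcript annotation or the options. Poly(A)-selected libraries came from a directional kit, per the labels' protocols. Groups came from GFP status in the titles. Of 54354 gene identifiers, 51528 (94.8%) were in GENCODE M21, used for exon lengths.

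The main comparison used edgeR 4.0.16 (R 4.3.3) on all 23 libraries: TMM scaling, filterByExpr, glmQLFit (robust) with sorted population as the only term, and p-values adjusted by Benjamini-Hochberg over all genes tested, with a threshold of 0.05. DESeq2 1.42.0 and the other settings are alternatives. CPM is the count divided by the library total, without TMM factors. Intervals (95%, exact binomial) and the floor of 3 counts cover counting error only. The labels do not say that replicates are separate animals. The p-values therefore reflect only how these libraries vary, which may be technical. A chi-square test of counts found 0 of 121 within-group pairs alike within sampling noise.

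The members and lists were chosen with earlier results of these data known. Named genes are all 10 members, Basp1, and from each of 17 lists the genes past the threshold or else the 3 most abundant. Of 192 list entries 191 were in the table. On simulated data (7015 genes) the fit called 92.5% of genes lowered and 92.0% of genes raised by 2 on the log2 scale. These shares average over changed genes drawn from all that passed the filter, in libraries simulated independently. They do not tell how often such a change would be called in members as variable as Guca2a (BCV 1.16) or Cyp2c55 (1.41), or in members below the filter. In the data, 7 fibroblast genes with a median of -2.35 gave 1 call.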

Additional observations from a re-analysis of the deposited data

How the results depend on the processing

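None of the 10 genes was called by edgeR or DESeq2 under any setting run, with or without the low-count filter. The count of genes called over the whole table was 1, and it was 61 by DESeq2, 89 in library set 2 alone, 0 in library set 1 alone and 0 without both the 4 libraries under 100000 counts and GFP-positive 3 (added after seeing the data). Leaving out 1 library at a time gave 0 to 16, with 16 without GFP-positive 3. With a replicate block by identifier the count was 2, and with a replicate block by title number 0. Without the filter, the replicate block by identifier gave 77 genes, against 1 unblocked, and called no member. Deviations of libraries with the same identifier were correlated above 0.1 in 5 of 12 pairs (median 0.080). Of the GFP-positive libraries, 4 of 11 correlated best with their own identifier. Title numbers reached 0.1 in 2 of 11 pairs (median -0.018). These values do not exclude a pairing by identifier. The labels name no block, so the main fit had none, and the blocked fits are given as alternatives. The GFP effect differed between library sets for 0 genes, for 1 without the filter and for 2 with at least 10 counts, none of them a member.

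Signs changed for 4 members, and the cause was not tested. Slc26a3 (0.37) became -0.053 and -0.029 with the replicate block by identifier and by title number, and -0.19 in library set 1, and ran from -0.11 to 0.73 when single libraries were left out. Vil1 (-0.24) was 0.0098 in library set 2. Tmigd1 (0.68) was -0.51 by DESeq2 and -0.81 in library set 1, and ran from -0.35 to 1.53 when single libraries were left out. Cyp2c55 (0.56) was -1.74 in library set 1 without the filter, and ran from -0.33 to 0.72 over the 17 of 23 such fits in which it passed the filter. The signs of the other 6 members held in all settings in which they were fitted. With 3 counts at 118 CPM in the shallowest library, differences in Fabp2, Ceacam20, Cdhr5, Slc26a3 and Tmigd1 are limited by depth.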
